A study of Mus musculus with 8 samples.

Results

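The cells described here are lymphatic endothelial cells of a mouse melanoma in which the pair Tppp3 and Igfbp5 scored highest of 5 gene sets. The tumors grew from pieces of MT-ret, a pigmented mouse melanoma, grafted to the ventral flank of 10 C57BL/6N animals. From these tumors 10000 endothelial cells of blood vessels (the BEC sort) and 10000 of lymphatic vessels (the LEC sort) were taken by flow sorting and read by droplet sequencing of transcript 3′ ends. Both sorts came from tumors of the same strain, and no untreated or tumor-free group is used here. The LEC sort held 4407 cells and 59273049 unique molecular identifiers (UMIs, 1 per captured molecule), and the BEC sort 3228 cells and 71304111 UMIs. The labels list 4 libraries per sort, but the cells carried no library number, so each sort was 1 sample, no cell could be traced to a mouse, and no test, p-value or replicate error could be had. Every interval below is at the 95% level and covers counting error only.

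Cells were eligible when they came from the LEC sort, had fewer than 20 UMIs of the pigment genes Dct, Tyrp1, Pmel and Tyr together, and had at least 1 UMI of Prox1, Lyve1 or Mmrn1. This left 4019 cells; 279 were left out for pigment genes and a further 109 for lack of a lymphatic UMI. Each eligible cell was scored for 5 gene sets, and each score was expressed in standard deviations from the mean of these cells (z). A cell was counted as a Tppp3 Igfbp5 cell when that pair had its highest z and the z was over 0.5. The rule found 745 cells, 18.5% of the eligible cells (exact Clopper-Pearson interval 17.3% to 19.8%), of 7635 cells in the series. The other eligible cells numbered 3274. They were 782 cells led by Cd24a and Scn3a, 437 by Npy, Ndufa4l2 and Pgf, 585 by Lsr, Postn and Foxp2, 511 by Cd74, Ccl2 and Vcam1, and 959 unassigned cells with no z over 0.5.

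Lymphatic endothelium lines the vessels that drain fluid, antigen and immune cells from tissue, and tumors use the same vessels as a route to the lymph node. Its identity is held by the transcription factor Prox1, its initial capillaries carry the hyaluronan receptor Lyve1 and release the chemokine Ccl21, and its collecting vessels and valves express other matrix and junction genes. Tppp3 encodes a member of the tubulin polymerization promoting family, which binds microtubules. Igfbp5 encodes a secreted protein that binds insulin-like growth factors and matrix. In the GENCODE annotation of GRCm38, Tppp3 lies on chromosome 8 from 105467493 to 105471526 on the minus strand, and Igfbp5 on chromosome 1 from 72857932 to 72874884 on the minus strand; both are protein-coding.

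The upstream sequences of Igfbp5 and of 4 genes that were higher in these cells are shown because the genes were high in the same cells. Each is the 250 bases before the RefSeq start site on GRCm38.p6, written 5′ to 3′ on the gene's strand, with the GC box GGGCGG on either strand in capitals; on the opposite strand it reads CCGCCC. Igfbp5 is at chr1:72874866-72875115, Pcp4l1 at chr1:171196269-171196518, Ptn at chr6:36810180-36810429, Rbp7 at chr4:149454969-149455218 and Gas6 at chr8:13494536-13494785, all on the minus strand.
Igfbp5: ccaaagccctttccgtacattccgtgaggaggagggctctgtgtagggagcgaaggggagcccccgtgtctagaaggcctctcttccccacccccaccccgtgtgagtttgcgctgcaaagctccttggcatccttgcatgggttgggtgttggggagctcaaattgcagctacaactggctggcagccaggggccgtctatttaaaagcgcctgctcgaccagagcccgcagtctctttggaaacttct
Pcp4l1: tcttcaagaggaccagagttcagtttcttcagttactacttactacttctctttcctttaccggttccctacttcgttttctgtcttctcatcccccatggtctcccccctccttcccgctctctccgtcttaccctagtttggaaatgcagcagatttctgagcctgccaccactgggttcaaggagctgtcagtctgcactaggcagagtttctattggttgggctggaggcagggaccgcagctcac
Ptn: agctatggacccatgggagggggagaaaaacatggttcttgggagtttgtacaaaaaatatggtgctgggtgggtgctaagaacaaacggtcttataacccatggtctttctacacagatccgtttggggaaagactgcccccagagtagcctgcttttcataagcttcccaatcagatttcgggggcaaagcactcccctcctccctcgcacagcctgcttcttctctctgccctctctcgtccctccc
Rbp7: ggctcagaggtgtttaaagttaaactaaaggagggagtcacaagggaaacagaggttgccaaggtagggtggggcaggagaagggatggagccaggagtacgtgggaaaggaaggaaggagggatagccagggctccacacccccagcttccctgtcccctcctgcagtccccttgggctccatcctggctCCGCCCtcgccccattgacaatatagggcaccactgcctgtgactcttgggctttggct
Gas6: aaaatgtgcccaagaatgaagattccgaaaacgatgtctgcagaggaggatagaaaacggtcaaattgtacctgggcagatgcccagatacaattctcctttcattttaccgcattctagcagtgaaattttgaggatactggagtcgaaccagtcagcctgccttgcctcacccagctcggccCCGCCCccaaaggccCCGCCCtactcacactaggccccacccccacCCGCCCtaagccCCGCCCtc
The Igfbp5, Pcp4l1 and Ptn windows held 0 GC boxes, the Rbp7 window 1 and the Gas6 window 4. Of the 15 leading higher genes described below, 12 had an entry in the RefSeq table used here, and 9 of these held a GC box, as did 7 of 8 leading lower genes with an entry. A GC box was present in 32.7% of all 32851 windows of that length in the table. The TATA box TATAAA, searched on both strands, was in 1 of the 12 higher genes, in 0 of the 8 lower genes and in 12.4% of all windows. For both motifs a gene counted when any of its windows held the match, while the shares over all windows count each window singly. The gene counts and those shares are therefore in different units. These letter matches are a description and not a record of factor binding.

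Both genes were scattered widely over the cells chosen by them. Tppp3 had a median of 9 UMIs per chosen cell (0 to 168), and Igfbp5 a median of 17 (0 to 674). UMIs of both genes were present in 518 cells (69.5%), of Tppp3 alone in 78 cells (10.5%) and of Igfbp5 alone in 149 cells (20%). Levels were computed by summing UMIs over the cells of a group and scaling to a total of 1000000 (CPM), and 1 UMI was worth 0.118 CPM in the chosen cells. Tppp3 stood at 1520 CPM (1494 to 1546) against 113 CPM in the other eligible cells, and Igfbp5 at 2046 CPM against 260 CPM. These values are what the rule selected and are given as a description. Between the other groups, Tppp3 was at 180 CPM in Cd24a Scn3a cells, 146 CPM in Cd74 Ccl2 Vcam1 cells, 95.1 CPM in Lsr Postn Foxp2 cells, 82.4 CPM in Npy Ndufa4l2 Pgf cells and 65.5 CPM in unassigned cells. Igfbp5 followed another order, with 693 CPM in Lsr Postn Foxp2 cells, 306 CPM in Npy Ndufa4l2 Pgf cells, 266 CPM in Cd74 Ccl2 Vcam1 cells, and 86.8 and 86.3 CPM in the unassigned and the Cd24a Scn3a cells. In the BEC sort both were low, at 26.6 CPM for Tppp3 and 35.5 CPM for Igfbp5.

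**Figure D1:**
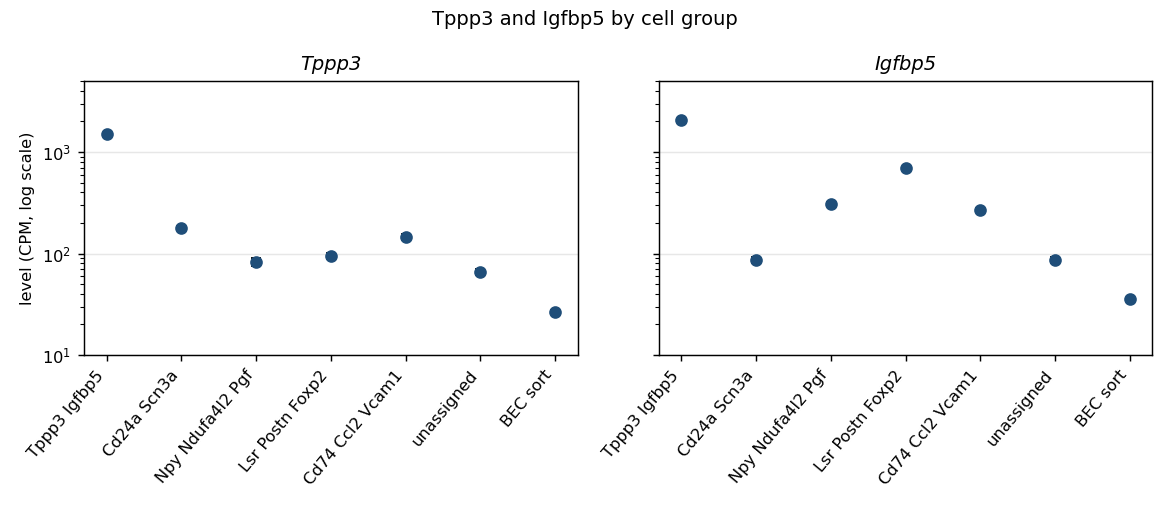
Level of Tppp3 (left) and Igfbp5 (right) in CPM on a log axis, for the Tppp3 Igfbp5 cells, the 5 other groups of eligible lymphatic cells and the whole BEC sort. Points are summed UMIs of a group and bars, mostly hidden by the points, are exact Poisson 95% intervals; Tppp3 is at 1520 CPM in the chosen cells and at most 180 CPM elsewhere, while Igfbp5 has its next highest level, 693 CPM, in the Lsr Postn Foxp2 cells.

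The values on both sides of the threshold are those of the genes that set it. The 50 cells just inside it, with z from 0.508 to 0.622, had 425 CPM of Tppp3 and 731 CPM of Igfbp5, and the 50 cells just outside, with z from 0.328 to 0.498, had 283 and 660 CPM. A further 188 cells had the pair as their highest score but at or under 0.5, and 347 cells had a pair score over 0.5 and a higher score for another set. Within the chosen cells, 285 (38.3%) were also over 0.5 for at least 1 other set, most often Cd24a Scn3a with 102 cells, then Lsr Postn Foxp2 with 94, Cd74 Ccl2 Vcam1 with 92 and Npy Ndufa4l2 Pgf with 55. Each group was cut from a score and is a range of that score. Over all 4019 eligible cells thinned to 5000 UMIs each, Igfbp5 was detected in 56.1% (53.2% to 59.1%) of 1108 cells with Tppp3 and in 29.99% (28.3% to 31.7%) of 2911 cells without it. Before thinning these shares were 57.9% and 34.2%. No cell was shallower than 5000 UMIs.

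The chosen cells carried the defining markers of lymphatic endothelium. All 7 lymphatic markers (Prox1, Lyve1, Mmrn1, Pdpn, Flt4, Reln and Ccl21a) were detected, with a summed level of 46309 CPM against 25582 CPM in the other eligible cells and 150 CPM in the BEC sort. Ccl21a made up most of these sums, at 41283 CPM in the chosen cells and 21645 CPM in the other eligible cells. Prox1, Lyve1 and Mmrn1 entered the filter on cells, so the other 4 are the part of this check that the filter did not use. Of those 4, Pdpn (496 against 419 CPM), Flt4 (383 against 324 CPM) and Reln (217 against 211 CPM) were within 1.5-fold. Blood endothelial markers summed to 1109 CPM, against 1387 CPM in the other eligible cells and 15414 CPM in the BEC sort; all 12 were detected, and Plvap gave the largest part at 752 CPM. Melanocytic markers were at 145 CPM against 139 CPM, of which Dct made up 111 and 105 CPM. Macrophage markers were at 42.4 CPM against 83.8 CPM, with 1 of 8 at 0 in the chosen cells, and mural markers at 22.7 CPM against 43.3 CPM, with 2 of 8 at 0. Pan-leukocyte markers summed to 4.74 CPM against 3.20 CPM, platelet markers to 32.0 CPM against 42.1 CPM, and all neutrophil and all B cell markers were at 0. The median depth was 9604 UMIs per cell (5288 to 45693) against 10885, and the median mitochondrial share 2.89% against 3.26%. Barcodes shared with the BEC sort were found in 3 chosen cells and 30 other eligible cells (34 in all); doublets were not removed. The part of depth and of other cell types in the differences below was not tested.

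Beyond the pair that chose them, Tppp3 Igfbp5 cells differed from the other lymphatic cells in a small share of genes. Pcp4l1, Ptn, Rbp7, Fndc1 and Crip1 led the higher genes, and Angpt2, Adm, Thbs1, Mt1 and Angptl4 the lower ones. Of 5887 genes that reached 20 CPM in at least 1 of the groups compared, 172 (2.92%) were at least 1.5-fold higher and 249 (4.23%) at least 1.5-fold lower, with the 13 set genes left out of these counts. The median log2 ratio over all these genes was -0.02. The same cells were chosen and compared, so the counts are a description of the contrast and support nothing by themselves.

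Pcp4l1, a small protein related to the calmodulin regulator Pcp4, was at 260 CPM (249 to 271) against 45.0 CPM, a 5.79-fold difference (5.44 to 6.16). It was detected in 42.4% of the chosen cells and 9.59% of the others after thinning. Ptn, which encodes the heparin-binding growth factor pleiotrophin, was at 621 CPM against 136 CPM. Rbp7, a cellular retinol-binding protein, was at 190 CPM against 41.2 CPM. Fndc1, a fibronectin type III domain protein, was at 140 CPM against 39.4 CPM, and the LIM domain protein gene Crip1 at 1548 CPM against 559 CPM. These 5 genes were higher in the chosen cells than in any of the other groups of lymphatic cells. Rbp7 and Ptn were not confined to lymphatic endothelium, with 309 and 377 CPM in the BEC sort, whereas Fndc1 was at 1.29 CPM there.

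Another leading gene was Gucy1b3, which encodes a subunit of the nitric oxide-sensing soluble guanylate cyclase and stood at 107 CPM against 40.03 CPM. Its partner subunit Gucy1a3, which is not among the 15 leading genes, was at 52.7 CPM against 12.5 CPM, and was between 4.23 and 18.2 CPM in each of the other 5 groups. Gas6, the ligand of the TAM receptor kinases, was at 434 CPM against 167 CPM. Htr2b, a serotonin receptor, was at 309 CPM against 125 CPM, and the heparan sulfate proteoglycan Sdc1 at 208 CPM against 82.6 CPM. The kinase gene Dapk2 was at 225 CPM against 93.1 CPM. Matrix genes among the leading genes were Eln, which encodes elastin, at 332 CPM against 138 CPM, and Abi3bp at 293 CPM against 128 CPM. The BMP antagonist Nbl1, the actin-binding protein gene Pdlim3 and the mitochondrial carrier gene Ucp2 completed the 15, with levels of 181, 160 and 233 CPM against 77.6, 57.9 and 96.7 CPM. No chosen cell held more than 3.24% of the UMIs of any of these 15 genes.

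The lower genes included several secreted factors that act on vessels. Angpt2, the context-dependent Tie2 ligand, was at 62.4 CPM (57.2 to 67.9) against 410 CPM, or 6.58-fold lower (6.03 to 7.19). This low level was shared with the Lsr Postn Foxp2 cells, in which Angpt2 was within 1.5-fold of the chosen cells. Adm, which encodes the vascular peptide adrenomedullin, was at 61.3 CPM against 350 CPM, or 5.71-fold lower, and 19.1% of its UMIs in the chosen cells came from 1 cell. Thbs1, which encodes thrombospondin 1, was at 44.5 CPM against 181 CPM, and Angptl4, an inhibitor of lipoprotein lipase, at 39.2 CPM against 122 CPM. Odc1, the polyamine synthesis enzyme, was at 27.7 CPM against 83.3 CPM. Igfbp7 was at 592 CPM against 1571 CPM, the fatty acid chaperone Fabp4 at 263 CPM against 680 CPM, and Fn1, which encodes fibronectin, at 261 CPM against 619 CPM. In the Npy Ndufa4l2 Pgf cells Igfbp7 was within 1.5-fold of the chosen cells. Mt1, H2-Q7, Lgals3, Tgif1, Clu and Mif were also among the 15, between 2.14-fold and 3.14-fold lower. Npy Ndufa4l2 Pgf cells set much of the difference for 3 of them. Without those cells Lgals3 was 1.09-fold lower, Mif 1.41-fold lower and Mt1 1.67-fold lower, while Angpt2 remained 4.90-fold and Adm 4.30-fold lower.

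**Figure D2:**
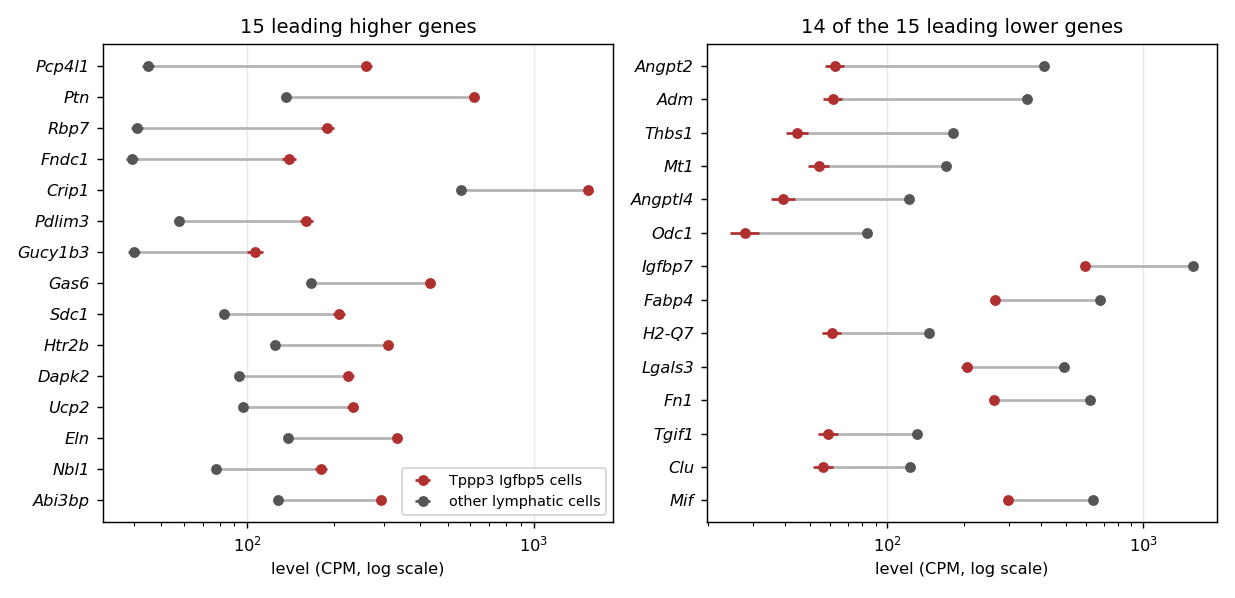
Level in CPM (log axis) of the 15 leading higher genes (left) and 14 of the 15 leading lower genes (right) in Tppp3 Igfbp5 cells (red) and all other eligible lymphatic cells (grey). Bars are exact Poisson 95% intervals and cover counting error only. The genes were picked for the size of their ratios, so the gap between their bars is no added evidence. Pcp4l1 is at 260 against 45.0 CPM and Angpt2 at 62.4 against 410 CPM.

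Set against each other group in turn, the chosen cells were nearest to the unassigned cells and farthest from the Npy Ndufa4l2 Pgf cells. At the same minimum and fold, 429 of 5910 genes (7.26%) were apart from the unassigned cells and 510 (8.63%) from the Lsr Postn Foxp2 cells. The count was 704 (11.8%) against Cd24a Scn3a cells, 826 (14%) against Cd74 Ccl2 Vcam1 cells, 1690 (28%) against Npy Ndufa4l2 Pgf cells and 2178 (35.4%) against the BEC sort. These comparisons share the chosen cells, and the groups differ in size and depth. Of 6504 genes that reached the minimum, 41 (0.63%) were higher in the chosen cells than in each of the 5 other groups and 14 (0.215%) were lower than in each.

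Among the 10 genes that stood farthest above every other group, Pcp4l1, Gucy1a3, Rbp7, Crip1 and Ptn have been described. Fbln7, a matrix adhesion protein of the fibulin family, was at 27.3 CPM in the chosen cells and between 1.35 and 2.80 CPM in the other groups. Tppp, a paralog of Tppp3 that also binds tubulin, was at 28.3 CPM against a range of 6.03 to 12.1 CPM. Comp, which encodes cartilage oligomeric matrix protein, was at 55.4 CPM against at most 24.4 CPM. Slco2b1, an organic anion transporter, was at 38.6 CPM against at most 18.2 CPM. Inhba also met the criterion, but 89.8% of its UMIs in the chosen cells came from 1 cell, so its level of 45.5 CPM describes that cell. Farthest below every other group were Adm, H2-Q7, H2-Q6, Cd14, Odc1, Tfpi2, Tgif1, Angptl4, Gsto1 and Pim1. Adm, for example, was at 61.3 CPM in the chosen cells and at no less than 167 CPM in any other group.

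Some genes were at levels in the Lsr Postn Foxp2 cells near those in the chosen cells. Htr2b was at 309 CPM in the chosen cells and 296 CPM in Lsr Postn Foxp2 cells, but between 49.9 and 129 CPM in the other groups. Thbd, the endothelial anticoagulant thrombomodulin, was at 208 and 227 CPM in the chosen and the Lsr Postn Foxp2 cells, and between 38.2 and 90.3 CPM elsewhere. Tek, which encodes the angiopoietin receptor Tie2, was at 91.9 and 102 CPM, and between 31.3 and 51.2 CPM elsewhere. Igf1 was at 46.3 and 58.0 CPM. Sdc1 was at 208 CPM in the chosen cells and lower, at 160 CPM, in the Lsr Postn Foxp2 cells, but between 35.4 and 89.2 CPM elsewhere. Igfbp5 itself had its next highest level in those cells, and 155 of the 585 had a Tppp3 Igfbp5 score over 0.5.

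**Figure D3:**
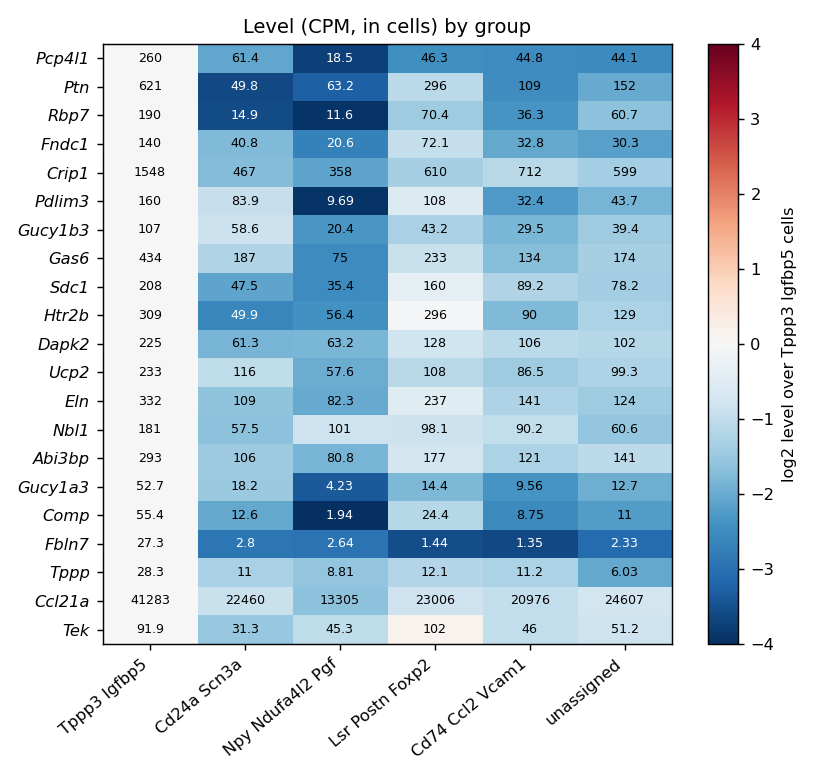
Levels in CPM (numbers in the cells) of 21 genes in the Tppp3 Igfbp5 cells and the other 5 groups of eligible lymphatic cells; colour is the log2 level relative to the Tppp3 Igfbp5 cells, with blue lower and red higher. Pcp4l1 and Rbp7 are lower in every other group, whereas Htr2b (296 CPM) and Tek (102 CPM) in the Lsr Postn Foxp2 cells are near the level of the Tppp3 Igfbp5 cells (309 and 91.9 CPM).

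Lists of genes with known roles are described by how many of their members, among those reaching 20 CPM, were apart by 1.5-fold or more and by their median log2 ratio, to be read beside 2.92% higher, 4.23% lower and a median of -0.02 over all genes. Lymphatic identity genes were near even. Of 18, 2 were higher and 0 lower, with a median of 0.26. Ccl21a, the chemokine that draws dendritic and T cells to lymphatic vessels, was at 41283 CPM against 21645 CPM (1.91-fold higher), and a chosen cell held a median of 410 UMIs of it against 164. Near-identical copies of this gene exist in the mouse genome, so the copy is uncertain. Nrp2, the Vegfc co-receptor, was at 365 CPM against 235 CPM. Lyve1 was at 2700 CPM against 1859 CPM, a ratio of 1.45, and Prox1 at 255 CPM against 268 CPM. Neither the capillary list (1 of 10 higher, 1 lower, median 0.09) nor the collecting and valve list (0 of 13 higher, 1 lower, median 0.27) was apart as a whole. In the valve list Foxc2 was at 69.3 CPM against 64.1 CPM and Gata2 at 52.0 CPM against 38.2 CPM, while the netrin receptor family member Neo1 was at 9.35 CPM against 30.2 CPM.

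The insulin-like growth factor list, to which Igfbp5 belongs, was split. Of its 5 other members at the minimum, Igfbp3 was at 371 CPM against 223 CPM and Igf1 at 46.3 CPM against 30.2 CPM. Igfbp7 was lower, at 592 CPM against 1571 CPM, and Igfbp4 (278 against 326 CPM) and Stc1 (158 against 120 CPM) were within 1.5-fold. The low Igfbp7 level was shared with the Npy Ndufa4l2 Pgf cells, in which it was within 1.5-fold of the chosen cells. Without that group the other cells were at 1717 CPM. Igfbp3 was not higher than in every group: unassigned cells had 405 CPM and Npy Ndufa4l2 Pgf cells 397 CPM. It was, however, detected in 44.2% of the chosen cells and 15.5% of the others after thinning. The tubulin and microtubule list, to which Tppp3 belongs, had 4 of 16 members higher and 0 lower. These were Tppp, the tubulin genes Tubb2a (292 against 179 CPM) and Tubb2b (55.5 against 30.7 CPM), and Mtus1 (100.2 against 63.8 CPM), a microtubule-associated protein. The major tubulins Tuba1a, at 1022 CPM against 970 CPM, and Tubb5, at 814 CPM against 827 CPM, were within 1.5-fold.

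Angiopoietin signalling genes were apart in opposite directions. Tek was at 91.9 CPM against 54.4 CPM and its ligand Angpt2 at 62.4 CPM against 410 CPM, while the receptor Tie1 (155 against 143 CPM) and the phosphatase Ptprb (77.1 against 72.9 CPM) were within 1.5-fold. Against the Lsr Postn Foxp2 cells alone, 0 of these 4 genes were apart. In the Notch list, the ligand Dll1 was at 27.3 CPM against 12.3 CPM and the target Hey1 at 77.5 CPM against 37.5 CPM. The other 5 members, with Notch1 at 102 CPM against 89.7 CPM, were within 1.5-fold. Against the Lsr Postn Foxp2 cells alone, 0 of 7 Notch genes were apart, Dll1 and Hey1 included, where 8.63% of all genes were apart. Of 22 transcription factor genes 2 were higher, among them the homeobox factor Meox2 at 38.6 CPM against 20.01 CPM, and 13.2% of the Meox2 UMIs were from 1 cell. Among chemokines and scavengers, 2 of 6 were higher and 3 lower. Ackr3, a scavenger of Cxcl12 and adrenomedullin, was at 217 CPM against 122 CPM. Against the Lsr Postn Foxp2 cells alone 1 of 5 was higher and 2 lower. Against the Cd74 Ccl2 Vcam1 cells alone 1 of 8 was higher and 5 lower. The higher gene was Ccl21a both times, so Ackr3 was not 1.5-fold higher than in either group. Ccl7 was at 51.5 CPM against 287 CPM, but it was at 1304 CPM in the Cd74 Ccl2 Vcam1 cells and 35.3 CPM in the unassigned cells. Guidance genes had Ntn1, which encodes netrin 1, higher at 182 CPM against 105 CPM, and 3 of 11 lower, the receptors Plxnd1, Robo4 and Unc5b. Against the Lsr Postn Foxp2 cells alone, 0 of 11 guidance genes were higher, so Ntn1 was not, and 1 was lower.

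Immune recognition genes were lower or even. In the MHC class I list 4 of 10 were lower and 0 higher, with a median of -0.47. B2m, the shared light chain, was at 2280 CPM against 3821 CPM, and H2-K1 at 556 CPM against 836 CPM. H2-D1, at 2295 CPM against 2709 CPM, was within 1.5-fold. Genes of this family share sequence, so reads may be split among copies. The level of B2m was 3214 CPM in Cd24a Scn3a cells, the lowest of the other groups. In the interferon list 5 of 12 were lower, among them the GTPase genes Iigp1 (79.3 against 193 CPM) and Gbp2 (46.6 against 97.2 CPM), while Ifitm3 was at 5162 CPM against 4785 CPM. Against the unassigned cells alone the medians were -0.29 for MHC class I, with 0 of 10 lower, and -0.20 for interferon, with 2 of 11 lower, where 4.21% of all genes were lower. The MHC class I list was lower mainly by comparison with 2 groups. Against Cd74 Ccl2 Vcam1 cells 6 of 10 were lower (median -1.02), and against Lsr Postn Foxp2 cells 5 of 10 (-0.57). Against Cd24a Scn3a cells 0 of 10 were lower (-0.08), and against Npy Ndufa4l2 Pgf cells 1 of 10 (0.05).

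Hypoxia and glycolysis genes were lower mainly by comparison with 1 group. In the hypoxia list 9 of 12 members were lower and 1 was higher, with a median of -0.88. Against Npy Ndufa4l2 Pgf cells 14 of 15 were lower with a median of -2.84, where 11.8% of all genes were lower. Without those cells 1 of 10 was lower and 1 higher with a median of -0.21, and the lower gene was Adm. Ddit4, a stress-induced inhibitor of mTOR signalling, was the higher member, at 222 CPM against 135 CPM. Against the unassigned cells alone 0 of 10 hypoxia genes were higher, so Ddit4 was not, and 2 were lower. Nor was it higher against Npy Ndufa4l2 Pgf cells, where 0 of 15 were. Glycolysis genes followed the same pattern. With all other cells 5 of 15 were lower with a median of -0.52, and Slc2a1, the glucose transporter, was at 19.5 CPM against 65.4 CPM. Without Npy Ndufa4l2 Pgf cells, 0 of 13 were apart, with a median of -0.08. Oxidative phosphorylation genes were even, with 0 of 21 apart and a median of -0.02.

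Matrix and coagulation genes went both ways. Of 20 interstitial matrix and remodelling genes, Ecm1 (39.4 against 21.6 CPM) and Mgp were higher, but 46.2% of the Mgp UMIs in the chosen cells came from 1 cell. Among the 5 lower members were Fn1, Thbs1, Tnc and Dcn. Dcn was at 74.0 CPM against 199 CPM with 21.1% of its UMIs in 1 chosen cell. Basement membrane genes were even, with 0 of 12 apart; Col4a1 was at 205 CPM against 228 CPM. Cell junction genes were also even, with 0 of 15 apart; Cldn5 was at 2612 CPM against 2170 CPM. In the coagulation list Thbd, at 208 CPM against 92.7 CPM, and S100a10, at 2631 CPM against 1702 CPM, were higher. C3 and the plasminogen activator gene Plat (107 against 180 CPM) were among the 3 lower members. Without Npy Ndufa4l2 Pgf cells S100a10 was 1.45-fold higher, under the 1.5-fold line. Against the Lsr Postn Foxp2 cells alone, 0 of 12 coagulation genes were higher, so Thbd and S100a10 were not, and 2 were lower. Fatty acid uptake genes had Fabp4, Fabp5 and Angptl4 lower and Meox2 higher of 7. Caveola genes had 1 of 9 higher, Sdpr, at 1290 CPM against 785 CPM.

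**Figure D4:**
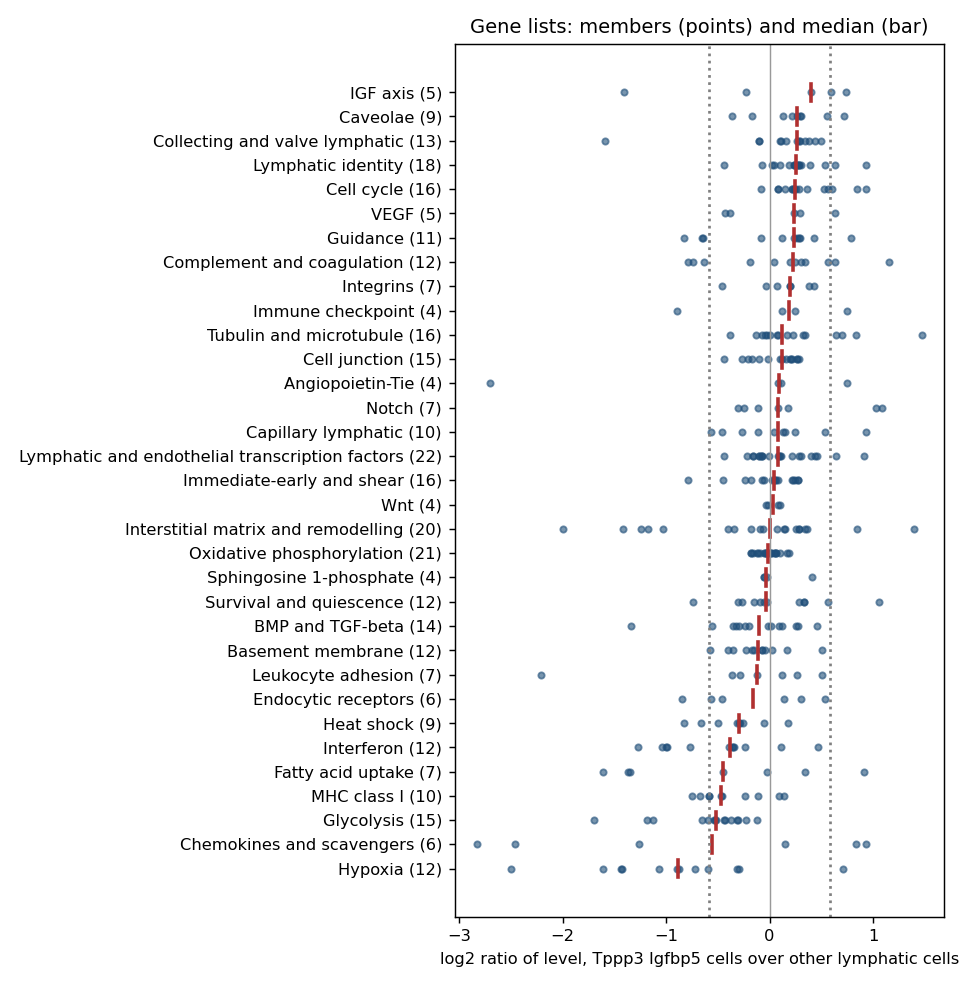
Log2 ratio of level, Tppp3 Igfbp5 cells over all other eligible lymphatic cells, for the members of 33 gene lists at 20 CPM or more (points, with their number in parentheses) and the median of each list (red bar); dotted lines mark 1.5-fold. The hypoxia list has the lowest median (-0.88) and the IGF axis the highest (0.40), and single members such as Angpt2 (-2.70) lie far from their list's median.

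Cells with cell cycle RNA were about as frequent among the chosen cells as in the pooled other cells, whose groups differed among themselves. After thinning to 5000 UMIs, 75 of 745 chosen cells (10.1%, 8.001% to 12.5%) had 2 or more UMIs of 10 cell cycle genes, against 9.74% of the other eligible cells (8.75% to 10.8%). By group the share was 5.95% in Npy Ndufa4l2 Pgf cells, 6.32% in Lsr Postn Foxp2 cells, 9.34% in Cd24a Scn3a cells, 12.1% in unassigned cells and 13.1% in Cd74 Ccl2 Vcam1 cells. The shares without thinning were 14.6% and 17.0%. Together the 10 genes stood at 412 CPM against 328 CPM. In the wider cell cycle list 4 of 16 were higher, namely Mcm5, Rrm2, Ccna2 and Top2a, with Mcm5 at 36.9 CPM against 18.9 CPM. By group, 13 of 16 were higher against Npy Ndufa4l2 Pgf cells, 11 against Lsr Postn Foxp2, 7 against Cd24a Scn3a and 4 against Cd74 Ccl2 Vcam1 cells. Against the unassigned cells 1 of 17 was higher and 1 lower, with a median of -0.24. Without Npy Ndufa4l2 Pgf cells 2 of 16 were higher, and Rrm2 (1.38-fold) and Top2a (1.40-fold) were under the line. Top2a, at 47.7 CPM against 31.0 CPM, had a log2 ratio of 0.61, which was -0.10 when cycling cells were left out.

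The pair of genes that chose the cells divided them in turn. In the 518 cells with UMIs of both genes, Pcp4l1 was at 305 CPM, in the 78 cells with Tppp3 alone at 368 CPM, and in the 149 cells with Igfbp5 alone at 39.4 CPM, below the 45.0 CPM of the other eligible cells. Crip1 had the same order, with 1623, 2452 and 782 CPM. Htr2b went the other way, with 327 CPM in cells with both, 73.6 CPM with Tppp3 alone and 372 CPM with Igfbp5 alone. Rbp7, at 196, 54.3 and 241 CPM, and Sdc1, at 203, 108 and 283 CPM, were also low where Igfbp5 was not detected. Ptn was highest where both were present, at 743 CPM against 301 and 346 CPM. Fabp4 was at 204 CPM in cells with both, 88.3 CPM with Tppp3 alone and 573 CPM with Igfbp5 alone. Of the 15 leading higher genes, 15 were above the other eligible cells in cells with both, 14 with Tppp3 alone and 14 with Igfbp5 alone. These genes were picked in the same cells, and the subsets were cut by the rule's own genes. Their direction in the subsets is therefore no separate evidence. Median depths of the subsets were 9786, 8949 and 9452 UMIs.

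**Figure D5:**
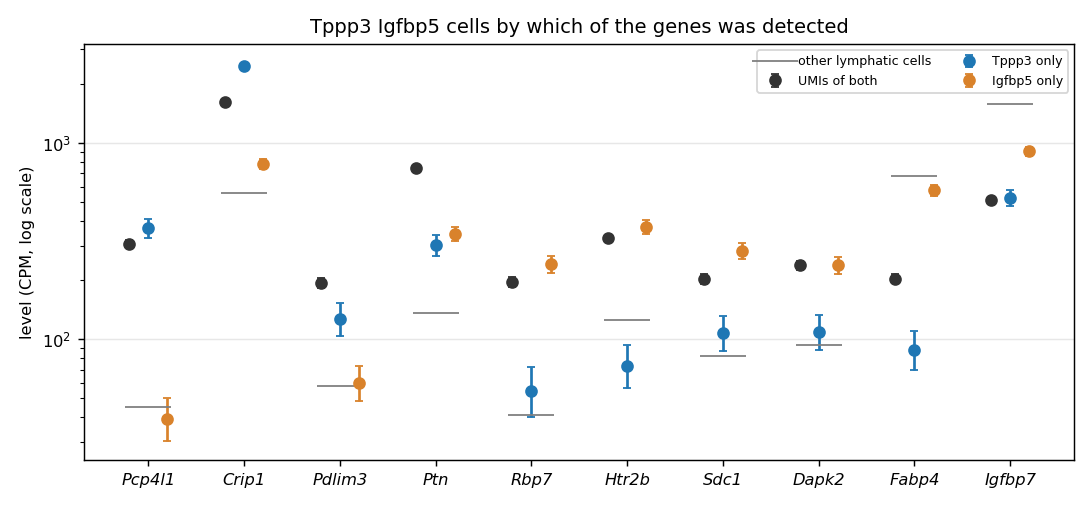
Level in CPM (log axis) of 10 genes in Tppp3 Igfbp5 cells split by which of the genes had a UMI (points, with exact Poisson 95% intervals), and in all other eligible lymphatic cells (grey lines). Pcp4l1 is at 305 and 368 CPM where Tppp3 was detected and at 39.4 CPM where only Igfbp5 was, while Htr2b and Rbp7 are low (73.6 and 54.3 CPM) where only Tppp3 was detected.

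Choosing the cells by 1 gene gave a view of the gene left out. With Tppp3 alone in place of the pair, 715 cells were chosen, and their Igfbp5 level was 1119 CPM against 452 CPM in the rest. With Igfbp5 alone, 783 cells were chosen, and their Tppp3 level was 811 CPM against 252 CPM. Angpt2 was low in both choices, at 91.2 CPM against 403 CPM and at 74.2 CPM against 411 CPM. Most of the cells chosen by 1 gene were those chosen by the pair: 507 of the 715 and 563 of the 783. The leading genes were picked for their contrast in the pair-chosen cells, so their direction in these choices is no separate evidence. Of the 172 genes higher in the chosen cells, 104 were also among the 213 called with Tppp3 alone and 120 among the 182 called with Igfbp5 alone.

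The chosen cells were also ordered by their score. The order is that of the rule's own score and the leading genes were picked in these same cells, so these values are a description. When the chosen cells were ordered by z, the 249 cells with the highest z (1.93 to 3.62) had 1112 CPM of Ptn, the middle 248 cells 466 CPM and the lowest 248 cells 325 CPM. Pcp4l1 was at 425, 236 and 135 CPM in the same order, and Ccl21a at 48571, 43210 and 32890 CPM. Igfbp7 went the other way, at 275, 555 and 912 CPM, as did Angpt2 at 33.3, 64.4 and 86.7 CPM. Adm did not, at 79.0, 59.7 and 46.9 CPM. Prox1, at 243, 267 and 255 CPM, and Pdpn, at 494, 496 and 499 CPM, stayed within 1.5-fold. Of 6000 genes at the minimum, 398 (6.63%) were at least 1.5-fold higher and 501 (8.35%) lower in the highest against the lowest group; these groups hold about 250 cells each.

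An unsupervised clustering of the eligible cells, made without the 13 set genes, placed 402 of the 745 chosen cells (54.0%, 50.3% to 57.6%) in 1 of 14 clusters. This cluster held 631 cells, of which the chosen cells were 63.7%, and its leading genes were Pcp4l1, Ptn, Fndc1, Gas6, Tnxb and Gucy1b3. Other chosen cells were spread, with 87 in a cluster led by Cmah and Mfap2, 80 in a cluster led by Nmb and St6galnac3, 45 in a cluster led by the mitotic genes Pbk and Ube2c, and 40 in a cluster led by Lfng. The small clusters led by blood endothelial genes, platelet genes and C4b held 8, 7 and 6 chosen cells, of 65, 28 and 54 cells. These are 12.3%, 25% (10.7% to 44.9%) and 11.1% of the clusters, beside 18.5% of all eligible cells. In the mitotic cluster the share was 23.1%. The cluster led by Nipal1, which also held Slc2a1 among its leading genes, had 2 chosen cells of 255. Of the cells with both genes 63.1% were in the main cluster, against 44.9% with Tppp3 alone and 26.8% with Igfbp5 alone.

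That cluster also held 229 cells the rule did not choose. Their Tppp3 level was 522 CPM and their Igfbp5 level 591 CPM, against 2169 and 2079 CPM in the chosen cells of the cluster. Pcp4l1 was at 179 CPM in these 229 cells and at 36.7 CPM in the 3045 cells that were in neither set. Ccl21a was at 48830.4 CPM against 19968 CPM, Gas6 at 444 CPM against 150 CPM, and Angpt2 at 76.5 CPM against 431 CPM. Chosen cells outside the cluster were less apart from the rest: Gas6 was at 227 CPM in these 343 cells and 663 CPM in the 402 inside, Ccl21a at 25580.0 and 58637 CPM, and Fabp4 at 434 and 74.0 CPM. Their Igfbp5 levels were close, at 2017 and 2079 CPM, while Tppp3 was at 932 and 2169 CPM. The cluster was made from the genes compared here, so these values are a description.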

How the data were processed

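UMI counts per gene and cell were used as deposited by the authors in 1 matrix of 28692 genes and 7635 cells, with no normalization. Libraries were 10x Chromium 3′ v2, per the labels' protocols. Cell Ranger 2.1.1 and mm10 were used, per the submitters' processing notes. The sources used here do not state how cells were filtered before deposit. No column belonged to another sample.

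Cells were chosen by the score rule given in the text, from mean log1p UMIs per 10000. UMIs were summed over cells and scaled to a total of 1000000 (CPM), with exact Poisson intervals, exact conditional binomial intervals for ratios and exact Clopper-Pearson intervals for shares. Log2 ratios used a pseudocount of 1 CPM. A gene was called when it was 1.5-fold apart and reached 20 CPM in at least 1 group. No test was made, since each sort was 1 sample. The gene calls and the cell rule were also run on simulated counts that held counting error only. Those counts do not cover genes whose UMIs came largely from 1 cell. Clusters came from 2000 variable genes, 30 components, 15 neighbours and the Leiden algorithm with resolution 1, in Python 3.11.15 with scikit-learn 1.9.0, scanpy 1.11.5 and python-igraph 0.11.9; scipy 1.17.1 gave the intervals. Doublets were not removed. Levels of different genes were not compared.

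Named genes were the 13 set genes, the 15 highest and 15 lowest ratios among genes with a UMI in at least 25% of cells of the higher group, the 3 most abundant and all called members of 34 lists, all insulin-like growth factor and lymphatic identity genes at the minimum, and up to 10 genes each way apart from every other group. The ranking of ratios skipped ribosomal, mitochondrial, haemoglobin and unnamed genes. Examples were taken from these, and a few cluster leaders were named after their values were seen. The cells and the lists were chosen with earlier results of these data known. Alternatives changed the score threshold, the filters, the scaling, the fold, the minimum and the comparison cells. A few named genes are not reported here.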

Additional observations from a re-analysis of the deposited data

How the results depend on the processing

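The counts of 172 higher and 249 lower genes stayed within 1.5 times under every alternative run except those that set the minimum or the fold: they were 97 and 111 at a minimum of 50 CPM, 443 and 711 at 5 CPM, and 46 and 88 at a fold of 2. The share of chosen cells was 13.8% at a z threshold of 1 and 21.6% at 0. The share in the main cluster was 58.0% with another random seed, and the share with cell cycle UMIs was 14.6% with no thinning. The chemokine median of -0.55 passed the 1.5-fold line at -0.68 with a z threshold of 1, -0.70 with thinned scores, -0.59 with cells weighted equally and -0.71 without clusters 9, 10 and 13 (led by blood endothelial genes, by C4b, and by platelet genes). The hypoxia median was -0.21 without Npy Ndufa4l2 Pgf cells. Among named genes at least 1.5-fold apart in the reported or the alternative value, the log2 ratio changed sign for Top2a without cycling cells (-0.10), and without Npy Ndufa4l2 Pgf cells for Ankrd37 (0.056), Ndufa4l2 (1.30) and Npy (0.74); for the last pair those cells were chosen by these genes. Some genes within 1.5-fold also changed sign near 0, among them Aldoa (0.082), Ldha (0.028) and Ndrg1 (0.063) without Npy Ndufa4l2 Pgf cells. The genes called changed more than the counts. Of the 172 higher genes 144 were also called without Npy Ndufa4l2 Pgf cells, and 179 of the 249 lower genes. With only unassigned cells as comparison, 123 of the higher and 132 of the lower genes were also called. With Tppp3 alone these numbers were 104 and 170, and with Igfbp5 alone 120 and 167. The settings that leave out those cells, the shared barcodes or the 3 clusters were chosen after seeing the data. No paired analysis was possible because the cells carry no library number and each sort was 1 sample. At this depth a gene with 3 UMIs in the chosen cells is at 0.355 CPM, far under the minimum used.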

Other observations

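In the BEC sort, 167 cells had a lymphatic UMI and few pigment UMIs, and 3 of them met the Tppp3 Igfbp5 rule when scored on the scale of the LEC sort. They are 0.0929% of the sort (0.0192% to 0.271%). These 3 cells had Ccl21a, Pdpn and Reln at 0 and Plvap at 3079 CPM, against 752 CPM in the chosen cells of the LEC sort, while Prox1 was at 41.8 CPM and Lyve1 at 27.9 CPM, each with UMIs in 1 of the 3 cells. Crip1 was at 8401 CPM in them.

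Cd2, an adhesion receptor of T and NK cells, was among the 41 genes above every other group and was chosen here after its values were seen. It was at 63.6 CPM in the Tppp3 Igfbp5 cells and 22.5 CPM in the other eligible cells, with a UMI in 17.7% and 7.36% of cells. The T and NK markers summed to 2.96 CPM (1.92 to 4.37) against 1.20 CPM (0.892 to 1.58) in the other eligible cells, with 3 of 5 at 0 in both. In Lsr Postn Foxp2 cells these markers were at 3.01 CPM and Cd2 at 8.12 CPM, its lowest level of the groups. In the remaining groups Cd2 was between 19.4 and 35.7 CPM and the T and NK markers between 0 and 1.64 CPM. Pan-leukocyte markers were at 4.74 CPM against 3.20 CPM. The source of the Cd2 UMIs was not tested.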
